A study of Mus musculus with 6 samples.

Results

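Transcripts of 10 integrin subunits were compared across 3 subsets of thymic endothelial cells (ECs). The genes were chosen by symbol, as the rows named Itga1, Itga2, Itga3, Itga5, Itga6, Itgav, Itgb1, Itgb3, Itgb4 and Itgb5 among 24457 gene rows in each of 6 libraries. All 10 passed the filter on low values, which asked for at least 1 FPKM in at least 2 libraries and left 11717 genes to test. FPKM, the number of fragments scaled to the length of the transcript and to the mapped fragments of the library, is a level per transcript length, so that genes can be compared with each other on it. The cells came from the thymus of wildtype female C57BL/6 mice, 4 to 6 weeks old, with no treatment named in the labels, and were sorted as CD31+CD45-EpCAM- cells at a stated purity of at least 90%. Antibodies to Ly6C and P-selectin (Selp) then divided them into Ly6C+Selp- (type I), Ly6C+Selp+ (type II) and Ly6C-Selp+ (type III) ECs, with 2 libraries of each. The study asked which thymic ECs are specialized for the entry of progenitors from the blood. Nothing in the labels says whether the replicates came from separate animals, so p-values measure the spread between these samples, which may be technical.

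Integrins are cell surface receptors made of 1 alpha and 1 beta subunit, which join the matrix outside the cell to actin or keratin filaments inside it. The alpha subunit largely sets the ligand. In endothelium, Itga1 and Itga2 pair with Itgb1 to bind collagen, Itga3 and Itga6 with Itgb1 bind the laminins of the basement membrane, Itga6 with Itgb4 makes the laminin receptor of hemidesmosomes, Itga5 with Itgb1 is the classical fibronectin receptor, and Itgav pairs with Itgb3 or Itgb5 to bind vitronectin and other ligands with an RGD motif.

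The genes of the collagen receptors lie side by side. In mm9, the build of the files, Itga2 lay on chr13:115626120-115722249 and Itga1 on chr13:115748289-115892172, both on the minus strand, with 26039 bases and 0 gene rows of the files between them. Pelo lies inside Itga1 on the same strand and shares no exon with it. Their levels ran in opposite directions across the subsets, so the 250 bases upstream of both starts are shown, with those of Itga3, a laminin receptor subunit that increased, for contrast. They are from RefSeq on GRCm38.p6, all on the minus strand and written 5′ to 3′, at chr13:115101965-115102214 for Itga1, chr13:114932101-114932350 for Itga2 and chr11:95076715-95076964 for Itga3. Capitals mark matches, on either strand, to 4 motifs that do not overlap each other here, the GC box GGGCGG, the TATA box TATAAA, the AP-1 site TGACTCA and the ETS site CCGGAA.
Itga1: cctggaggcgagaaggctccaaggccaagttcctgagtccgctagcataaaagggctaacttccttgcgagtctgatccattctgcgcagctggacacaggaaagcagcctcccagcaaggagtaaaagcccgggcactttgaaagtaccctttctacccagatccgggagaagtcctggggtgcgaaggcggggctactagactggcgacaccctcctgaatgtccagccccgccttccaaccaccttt
Itga2: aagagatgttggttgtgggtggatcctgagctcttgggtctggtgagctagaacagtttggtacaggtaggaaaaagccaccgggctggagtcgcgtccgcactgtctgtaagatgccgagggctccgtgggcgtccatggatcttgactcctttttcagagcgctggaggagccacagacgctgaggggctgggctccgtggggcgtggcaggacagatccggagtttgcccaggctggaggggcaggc
Itga3: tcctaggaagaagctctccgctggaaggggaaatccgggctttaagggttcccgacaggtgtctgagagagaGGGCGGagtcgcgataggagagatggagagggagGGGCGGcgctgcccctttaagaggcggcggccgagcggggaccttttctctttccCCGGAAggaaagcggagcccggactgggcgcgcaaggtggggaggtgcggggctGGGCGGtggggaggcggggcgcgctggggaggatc
The Itga3 stretch held 3 GC boxes and 1 ETS site, and those of Itga1 and Itga2 held none of the 4 motifs. The table has a second Itga3 start, at chr11:95069199-95069448, whose stretch held 1 GC box and no other of these motifs, at 50.8% G and C. Of 32851 promoter windows of this length, 32.7% held a GC box, 12.4% a TATA box, 4.46% an AP-1 site and 12.0% an ETS site. The G and C content was 57.6% for Itga1, 60.8% for Itga2 and 67.6% for Itga3, and the median over all windows was 52.4%. Of the 10 members, 7 had a promoter in the table. Itga6, Itgb3 and Itgb4 did not.

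Between type III and type I ECs, 3 of the 10 subunits passed the test, Itga2, Itga3 and Itgb4, and all 3 were higher in type III ECs (limma, adjusted p under 0.05). Of all 11717 genes tested, 4.14% passed in this comparison, and 2.09% passed as higher. Itga2 was under 1 FPKM in both type I libraries and entered the test only through the subsets where it is high. With a filter of 5 FPKM, which leaves Itga2 out, 2 of 7 subunits passed, beside 495 of 7339 genes. The members were chosen with earlier results of these data known, so the count is a description and not independent support. Libraries of these subsets did not overlap for 6 of 10 subunits, against 37.9% of all genes. The other 3 were Itga5, higher in type III ECs, and Itga1 and Itga6, lower. With the replicate number as a block in the fit, Itga1 and Itga6 also passed, as lower, which made 5 of 10 against 8.29% of all genes. The study's own test of these subsets, Cuffdiff on the reads of the same libraries, lists Itga1, Itga2, Itga3, Itga6 and Itgb4 as differing. The median log2 difference was 0.23 over the members and 0.08 over all genes, and the median size of the difference without its sign was 0.74 against 0.31. All 5 members called in either fit are subunits of collagen or laminin receptors, with Itga2, Itga3 and Itgb4 higher and Itga1 and Itga6 lower. Itgb1, also a subunit of these receptors, was called in neither fit (limma adjusted p = 0.67, and 0.18 with the block).

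**Figure D1:**
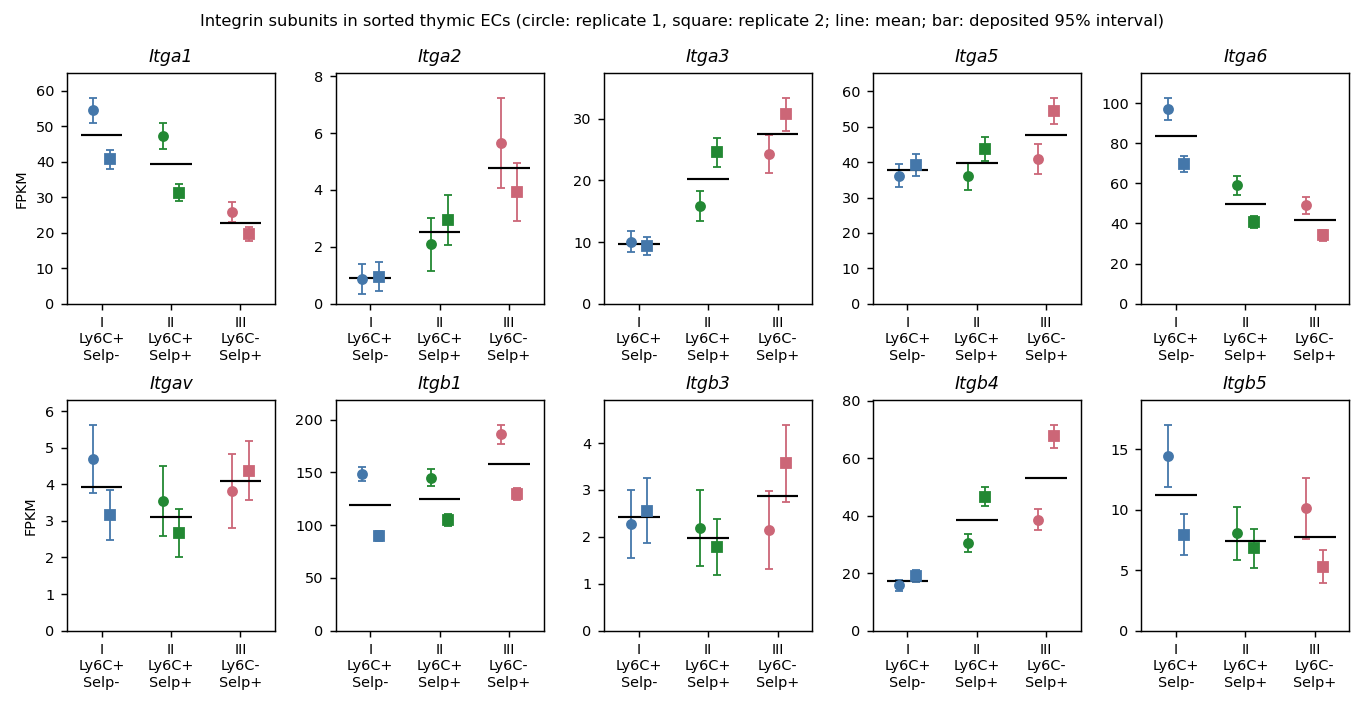
FPKM of each subunit (vertical axes from 0, each with its own scale) in the 3 subsets. Circles are replicate 1, squares replicate 2, black lines the mean of both, and bars the deposited 95% interval. Itga2, Itga3 and Itgb4 step up from left to right, Itga1 and Itga6 step down, and Itgb1 differs more between replicates than between subsets.

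The depth behind these values was modest. The files give no read counts, but the number of fragments can be estimated from the deposited 95% intervals, as if these held counting error only. The estimates summed to between 1452476 and 2423171 fragments a library, and 3 fragments corresponded to a median of 0.32 to 0.55 FPKM. The sort genes followed the labels in every library. Selp stood at 7.87 and 5.20 FPKM in type I ECs and at 313 to 657 in the 4 other libraries, and Ly6c1 was at 99.6 and 59.7 FPKM in type III ECs and at 351 to 1010 in the 4 others. The summed level of 8 endothelial markers was between 1858 and 2677 FPKM in all 6 libraries. The summed level of 12 markers of thymocytes and other leukocytes ranged more widely, from 55.2 to 519 FPKM, with the highest value in type III replicate 1. In bulk RNA, fewer cells of a type and less RNA per cell cannot be told apart.

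Among the laminin receptors, Itga3, the alpha subunit that binds laminins of the basement membrane together with Itgb1, was at 10.1 and 9.32 FPKM in type I ECs. It was at 15.8 and 24.5 FPKM in type II ECs and at 24.3 and 30.7 FPKM in type III ECs. Both type I libraries were below all others, and the other 2 subsets overlapped. Itga3 rose 2.84-fold in mean FPKM from type I to type III ECs, by 1.41 on the log2(FPKM + 1) scale (standard error (SE) 0.29, limma adjusted p = 0.030). In type II against type I ECs the log2 difference was 0.95 (SE 0.29, limma adjusted p = 0.36), and in type III against type II ECs it was 0.45 (SE 0.29, limma adjusted p = 0.68). In mm9, Itga3 lay on chr11:94905796-94938028, minus strand, and no other annotated gene overlapped it.

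Itgb4, the beta subunit with a long cytoplasmic tail that binds plectin, was at 15.7 and 19.0 FPKM in type I ECs, at 30.5 and 46.6 in type II ECs and at 38.7 and 67.6 in type III ECs. Again both type I libraries were below the 4 others, and in each subset replicate 2 was the higher. Itgb4 rose 3.06-fold in mean FPKM from type I to type III ECs, by 1.51 on the log2 scale (SE 0.33, limma adjusted p = 0.039). In type II against type I ECs the log2 difference was 1.08 (SE 0.33, limma adjusted p = 0.36, and 0.040 with the replicate block). Between type III and type II ECs it was 0.43 (SE 0.33, limma adjusted p = 0.75). Itgb4 lay on chr11:115836039-115869725, plus strand, where exons of the minus strand transcript B230344G16Rik overlap its own. Counting by strand is not stated, so reads of these genes cannot be told apart.

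Itga6, the alpha subunit that Itgb4 needs as its partner and that also pairs with Itgb1, went the other way. Its level was 97.1 and 69.6 FPKM in type I ECs, 59.0 and 40.8 in type II ECs and 49.1 and 34.1 in type III ECs. Both type I libraries were above the 4 others, and in each subset replicate 2 was the lower. The mean FPKM in type III ECs was 0.499 of that in type I ECs, a log2 difference of -0.99 (SE 0.30) with a limma adjusted p of 0.13, or 0.0077 with the replicate block. The log2 difference from type I to type II ECs was -0.73 (SE 0.30, limma adjusted p = 0.60). In mm9, Itga6 lay on chr2:71624996-71696484, plus strand, with no other gene across it.

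Epithelial cells also make Itga3, Itga6 and Itgb4 in quantity, so the thymic epithelial markers are given beside them. The 8 markers, none of them at 0 in all libraries, summed to 73.2 and 28.0 FPKM in type I ECs, 38.7 and 31.4 in type II ECs and 65.5 and 18.3 in type III ECs. The subsets overlapped in this sum. Of the 8, 1 was lower and 1 was higher in both type III libraries than in both type I libraries. The lower one, Krt5, a keratin of basal epithelial cells, was at 12.5 and 7.44 FPKM in type I ECs. The 4 other libraries had 1.49 to 5.38 FPKM of it. Krt5 differed by -0.99 on the log2 scale between type III and type I ECs (limma adjusted p = 0.26, and 0.0498 with the replicate block). The higher one, the keratin gene Krt14, was at 0.874 and 0.350 FPKM in type I ECs and 3.99 and 1.95 in type III ECs. Its log2 difference between these subsets was 1.27 (limma adjusted p = 0.18), and it was at 0 in both type II libraries. The part of epithelial cells in the values of these subunits was not tested.

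Among the collagen receptors, Itga1, an alpha subunit that prefers collagen IV of the basement membrane, was at 54.5 and 40.7 FPKM in type I ECs, 47.4 and 31.3 in type II ECs and 25.9 and 19.6 in type III ECs. Both type III libraries were below the 4 others, and the other 2 subsets overlapped. The mean FPKM in type III ECs was 0.478 of that in type I ECs, a log2 difference of -1.03 (SE 0.30) with a limma adjusted p of 0.11, or 0.0087 with the replicate block. Against type II ECs the log2 difference was -0.75 (SE 0.30, limma adjusted p = 0.45), and from type I to type II ECs it was -0.28 (SE 0.30, limma adjusted p = 0.97).

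Vascular smooth muscle cells and pericytes also express Itga1, and 5 of 8 of their markers were lower in both type III libraries than in both type I libraries. Another 2 were higher in both, Tagln and Acta2. Of all 11717 genes tested, 2009 were lower and 2430 were higher in this way. The 8 markers summed to 550 and 239 FPKM in type I ECs, 567 and 449 in type II ECs and 179 and 257 in type III ECs, with none at 0 in all libraries. Of the 8, Pdgfrb and Notch3 fell from type I to type III ECs, by 1.85 and by 1.73 on the log2 scale (limma adjusted p = 0.013 and 0.021), and Tagln rose. Acta2 was at 13.7 and 7.53 FPKM in type I ECs and at 16.9 and 33.8 in type III ECs (log2 difference 1.16, limma adjusted p = 0.18). Myh11 overlapped, at 17.7 and 9.40 FPKM in type I ECs and 14.8 and 32.9 in type III ECs (log2 difference 0.73, limma adjusted p = 0.54). Rgs5, a pericyte marker, was at 346 and 114 FPKM in type I ECs, 284 and 137 in type II ECs and 48.6 and 45.4 in type III ECs, a log2 difference of -2.06 between the end subsets (limma adjusted p = 0.057, and 0.0051 with the replicate block). Cspg4 and Des were the other markers that did not overlap as lower. From type II to type III ECs, Pdgfrb, Rgs5 and Notch3 passed with the replicate block (limma adjusted p = 0.027, 0.023 and 0.040). The part of such cells in the Itga1 values was not tested.

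Itga2, the alpha subunit that prefers fibrillar collagen, was the lowest of the 10 in type I ECs, at 0.872 and 0.952 FPKM. It was at 2.09 and 2.94 FPKM in type II ECs and at 5.64 and 3.93 FPKM in type III ECs. No 2 subsets overlapped, and both neighbouring steps went up. Itga2 rose by 1.58 on the log2(FPKM + 1) scale from type I to type III ECs (SE 0.35, limma adjusted p = 0.040), a 5.25-fold difference in mean FPKM. It was under 1 FPKM in both type I libraries, so it passed the filter on low values only through the subsets where it is high. With no filter, which tests 16624 genes, the limma adjusted p was 0.11 for Itga2, 0.070 for Itga3 and 0.11 for Itgb4. The log2 difference of Itga2 was 0.87 for the step from type I to type II ECs (SE 0.35, limma adjusted p = 0.60) and 0.71 for the step from type II to type III ECs (SE 0.35, limma adjusted p = 0.56). The values rest on few fragments, an estimated 11 and 15 in type I ECs and 50 and 59 in type III ECs. The deposited 95% intervals reached up to 1.40 and 1.45 FPKM in the former and down to 4.05 and 2.90 FPKM in the latter, so they do not overlap either.

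Platelets and natural killer cells are known for Itga2 as well. Of 8 platelet and megakaryocyte markers, 1 reached 1 FPKM in 2 libraries, and the 8 summed to 2.31 and 1.62 FPKM in type I ECs, 3.60 and 6.31 in type II ECs and 1.90 and 5.43 in type III ECs. The leukocyte markers, 11 of 12 of which passed the filter, summed to 303 and 55.2 FPKM in type I ECs, 142 and 73.1 in type II ECs and 519 and 141 in type III ECs. Of the 11, Lck and Cd79a were higher in both type III libraries than in both type I libraries, and 0 were lower. Of all 11717 genes tested, 2430 were higher in this way. Cd3g overlapped, with a log2 difference of 1.66 (limma adjusted p = 0.49, and 0.0069 with the replicate block). The library with the highest leukocyte sum, type III replicate 1, also had the highest Itga2. The list holds no marker of natural killer cells. The part of platelets and leukocytes in the Itga2 values was not tested.

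**Figure D2:**
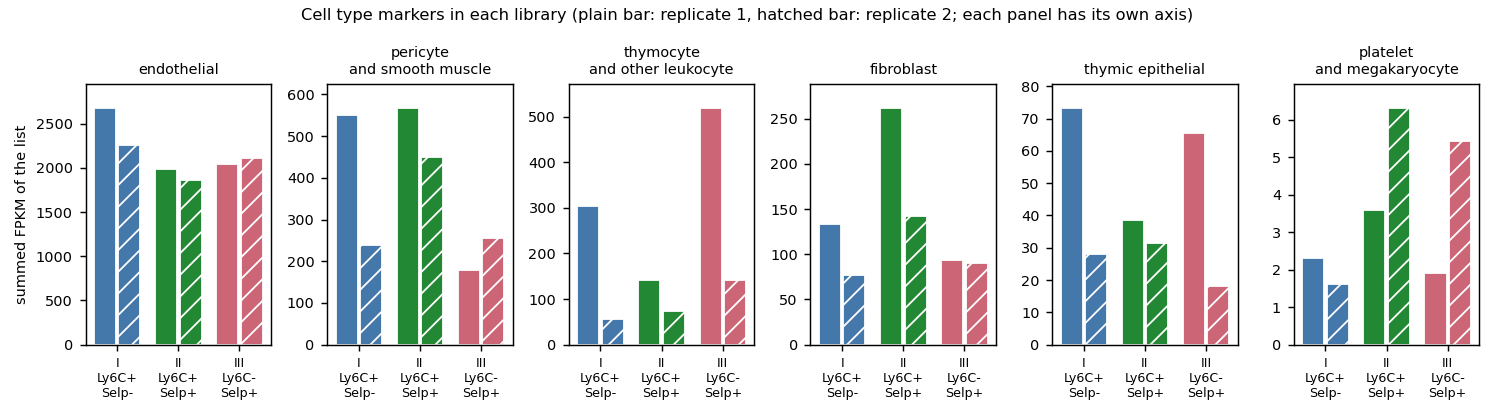
Summed FPKM of the marker genes of 6 cell types (vertical axes from 0, each with its own scale) in each library, by subset, with plain bars for replicate 1 and hatched bars for replicate 2. Endothelial markers stand between 1858 and 2677 FPKM throughout, pericyte and smooth muscle markers are highest in type II replicate 1, and leukocyte markers are highest in type III replicate 1.

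Itga5, the alpha subunit of the fibronectin receptor, was at 36.2 and 39.3 FPKM in type I ECs, 36.0 and 43.7 in type II ECs and 41.0 and 54.4 in type III ECs. Both type III libraries were above both type I libraries, but after scaling each library by its median ratio they overlapped. The log2 difference between these subsets was 0.32 (SE 0.25, 95% interval -0.26 to 0.89, limma adjusted p = 0.70).

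Itgav, the alpha partner of Itgb3 and Itgb5, was at 4.69 and 3.16 FPKM in type I ECs, 3.55 and 2.66 in type II ECs and 3.82 and 4.38 in type III ECs. The lowest and the highest value came from type II and type I ECs, and the end subsets overlapped. Between type III and type I ECs the log2 difference was 0.07 (SE 0.33, 95% interval -0.69 to 0.82, limma adjusted p = 0.97), and after median-ratio scaling it was -0.0058. Exons of the minus strand transcript Gm13684 overlap those of Itgav, and the 2 cannot be told apart without strand.

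Of the beta subunits, Itgb1, the partner of most alpha subunits, had the highest level of the 10 in every library. It was at 149 and 89.7 FPKM in type I ECs, 145 and 105 in type II ECs and 186 and 130 in type III ECs. All 3 subsets overlapped as deposited, and replicate 1 was the higher in each. After median-ratio scaling both type III libraries were above both type I libraries (log2 difference 0.33, limma adjusted p = 0.46). Without scaling, the log2 difference between type III and type I ECs was 0.42 (SE 0.32, 95% interval -0.30 to 1.14, limma adjusted p = 0.67).

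Itgb3, the beta subunit of the endothelial vitronectin receptor, was at 2.28 and 2.56 FPKM in type I ECs, 2.18 and 1.78 in type II ECs and 2.15 and 3.57 in type III ECs. Itgb5, the other vitronectin receptor beta subunit, was at 14.5 and 7.95 FPKM in type I ECs, 8.05 and 6.81 in type II ECs and 10.1 and 5.30 in type III ECs. For both genes the end subsets overlapped as deposited. After median-ratio scaling those of Itgb3 still did, and Itgb5 was lower in both type III libraries than in both type I libraries (log2 difference -0.58, limma adjusted p = 0.36). Without scaling, the log2 differences between type III and type I ECs were 0.15 for Itgb3 (95% interval -0.65 to 0.95, limma adjusted p = 0.92) and -0.49 for Itgb5 (95% interval -1.36 to 0.38, limma adjusted p = 0.69). The intervals are wide, so the levels were not shown to be alike.

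**Figure D3:**
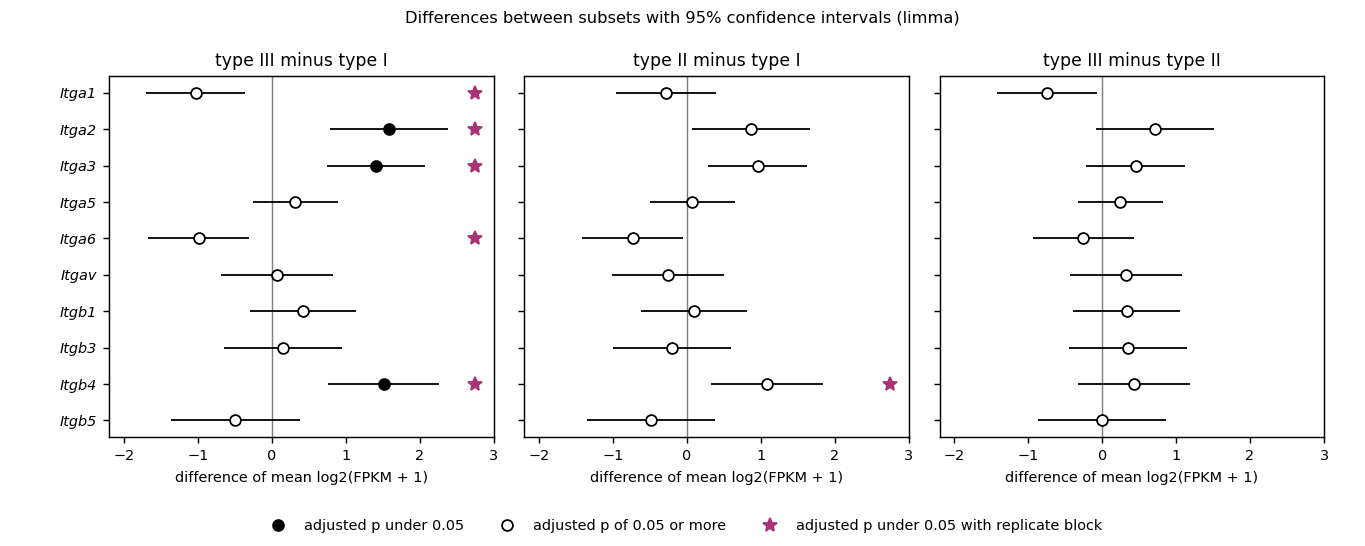
Difference of mean log2(FPKM + 1) (horizontal axis) for each subunit in the 3 comparisons, with 95% confidence intervals from limma. Filled points passed an adjusted p of 0.05, open points did not, and stars at the right edge mark those that passed with the replicate number as a block. The 3 filled points are Itga2, Itga3 and Itgb4 in the left panel, at 1.58, 1.41 and 1.51.

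The 3 calls rest on few libraries. Without type I replicate 1, the limma adjusted p was 0.13 for Itga2, 0.065 for Itga3 and 0.11 for Itgb4. Without type I replicate 2 it was 0.14, 0.11 and 0.079, in the same order. Without type III replicate 1 it was 0.27, 0.093 and 0.037, and without type III replicate 2 it was 0.085, 0.17 and 0.20. Leaving out a type II library moved that of Itga2 to 0.059 or 0.060 and kept Itga3 and Itgb4 under 0.05. The log2 differences kept their sign throughout, from 1.37 to 1.797 for Itga2, from 1.24 to 1.57 for Itga3 and from 1.12 to 1.91 for Itgb4. Scaling each library by its median ratio gave limma adjusted p values of 0.032 for Itga2, 0.055 for Itga3 and 0.10 for Itgb4, and brought Itga1 and Itga6 to 0.018 each.

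In type II against type I ECs, 0 of 10 subunits passed (limma, with 4 at an unadjusted p under 0.05, Itga2, Itga3, Itga6 and Itgb4), and 0.393% of all genes did. Of all 11717 genes tested, 877 had an unadjusted limma p under 0.05 here. Libraries did not overlap for 5 of 10, against 33.6% of all genes, with Itga2, Itga3 and Itgb4 higher and Itga6 and Itgb3 lower in type II ECs. With the replicate block 1 passed, Itgb4, against 1.56%. Of the 46 genes that passed in all, 82.6% were higher in type II ECs, and this share was 69.5% after median-ratio scaling and 70.9% after quantile normalization. The median log2 difference was -0.06 over the members and -0.06 over all genes.

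In type III against type II ECs, 0 of 10 subunits passed (limma, with 1 at an unadjusted p under 0.05, Itga1), and 0.222% of all genes did. Of all 11717 genes tested, 1170 had an unadjusted limma p under 0.05 here. Libraries did not overlap for 3 of 10, Itga1, Itga2 and Itgav, against 41.0% of all genes. With the replicate block 0 passed, against 1.95%, and with the block and median-ratio scaling together Itga1 did, at a limma adjusted p of 0.042. Of the 26 genes that passed in all, 42.3% were higher in type III ECs, and 27.4% after median-ratio scaling and 24.4% after quantile normalization. The median log2 difference of all genes in this comparison was 0.14 as deposited and 0.01 after median-ratio scaling, and the member median as deposited was 0.32.

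Type II ECs lay between the other 2 subsets in mean log2 level for 8 of 10 subunits, all but Itgav and Itgb3. The share of all genes with such a position was not taken, so it is not shown to be particular to integrins. Of the distance from type I to type III ECs, type II ECs stood at 74.0% for Itga6, 71.5% for Itgb4, 67.9% for Itga3, 54.9% for Itga2 and 27.6% for Itga1. For Itga5, Itgb1 and Itgb5, which did not pass between the end subsets in either fit, they stood at 22.5%, 22.4% and 98.7%. The 3 laminin receptor subunits thus had most of their difference between the Ly6C+ subsets, types I and II, and Itga1 had most of it between the Selp+ subsets, types II and III. Whether the 2 steps differ was not tested.

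Values within a library do not depend on how libraries are scaled, so the makeup of the alpha subunits was also taken as each gene's share of the summed FPKM of the 6 alpha genes. Itga6 held 47.7% and 42.7% in type I ECs, 36.0% and 28.0% in type II ECs and 32.8% and 23.1% in type III ECs. Itga1 held 26.8% and 24.98%, then 28.9% and 21.4%, then 17.3% and 13.3%, in the same order. Itga3 held 4.94% and 5.72%, then 9.64% and 16.8%, then 16.2% and 20.9%.

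Itga6 was the largest alpha transcript in both type I libraries, and Itga5 was the largest in type III replicate 2, at 37.0%, as in type II replicate 2, at 30.0%. The share of Itga2 was 0.428% and 0.584% in type I ECs, 1.28% and 2.02% in type II ECs and 3.77% and 2.67% in type III ECs. Itgav held 2.30% and 1.94% in type I ECs, 2.17% and 1.82% in type II ECs and 2.55% and 2.97% in type III ECs. For 6 of 6 genes the type I and type III shares did not overlap, but the shares of a library depend on each other, and the FPKM of 37.9% of all genes did not overlap either. The shares were not tested.

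**Figure D4:**
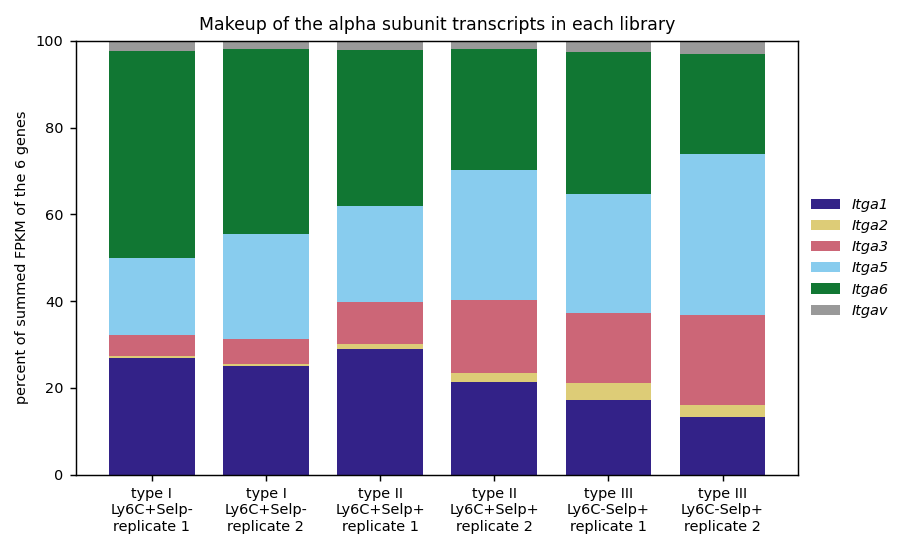
Percent of the summed FPKM of the 6 alpha subunit genes (vertical axis) that each gene held in each of the 6 libraries. Itga6 shrinks from 47.7% and 42.7% in type I ECs to 32.8% and 23.1% in type III ECs, and Itga3 widens from 4.94% and 5.72% to 16.2% and 20.9%.

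Some ratios of partner genes within a library also set the subsets apart, and others did not. The ratios were not tested. The ratio of Itga6 to Itgb1 FPKM was 0.653 and 0.775 in type I ECs, 0.406 and 0.389 in type II ECs and 0.264 and 0.263 in type III ECs. No subset overlapped another in this ratio, while both genes differed between replicates in FPKM. The ratio of Itga5 to Itgb1 behaved otherwise, with 0.244 and 0.437, 0.248 and 0.417, and 0.220 and 0.420 in the same order, and split the libraries by replicate number rather than by subset. All subsets also overlapped in the ratios of Itgb5 and of Itgb3 to Itgav. In the same order these were 3.09 and 2.51, 2.27 and 2.55, and 2.65 and 1.21 for Itgb5. For Itgb3 they were 0.487 and 0.810, 0.615 and 0.669, and 0.563 and 0.816.

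The ratio of Itgb4 to Itga6, the partners of the hemidesmosome receptor, was 0.162 and 0.273 in type I ECs, 0.517 and 1.14 in type II ECs and 0.788 and 1.99 in type III ECs. Itga6 transcripts were thus in excess over Itgb4 in 4 libraries, and Itgb4 was in excess in replicate 2 of both Selp+ subsets. The ratio of the neighbours Itga1 to Itga2 was 62.6 and 42.7 in type I ECs, 22.7 and 10.6 in type II ECs and 4.59 and 5.0 in type III ECs. All 3 subsets stood apart in it, and Itga1 was the higher of the neighbours in every library. The summed FPKM of the 6 alpha genes relative to Itgb1 was 1.37 and 1.82 in type I ECs, 1.13 and 1.39 in type II ECs and 0.804 and 1.14 in type III ECs.

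**Figure D5:**
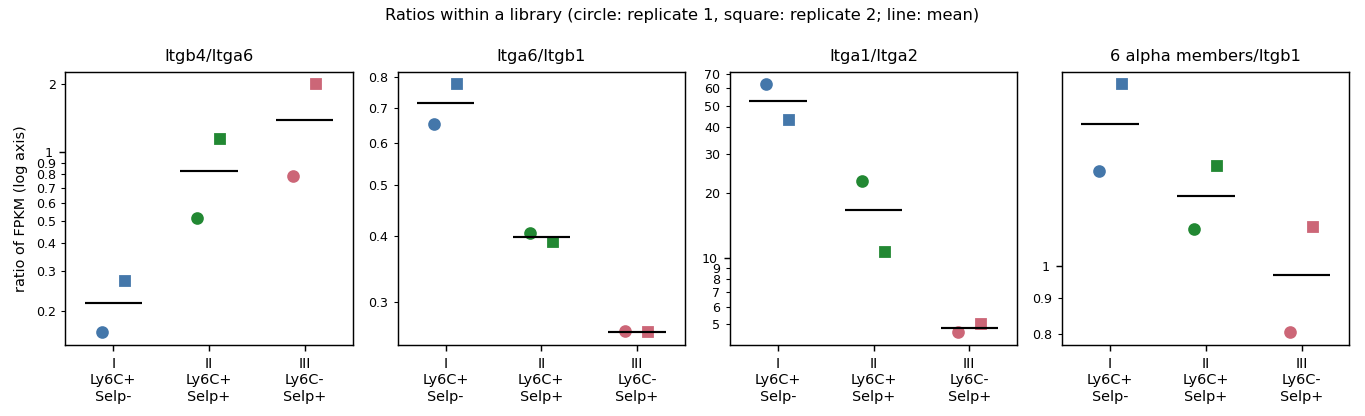
Ratio of FPKM within a library (logarithmic vertical axes, each with its own scale) in the 3 subsets, with circles for replicate 1, squares for replicate 2 and lines for the mean. Itga6 to Itgb1 and Itga1 to Itga2 step down without overlap, from 0.653 and 0.775 to 0.264 and 0.263 and from 62.6 and 42.7 to 4.59 and 5.0.

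Ranked by mean FPKM, the order in type I ECs was Itgb1, Itga6, Itga1, Itga5, Itgb4, Itgb5, Itga3, Itgav, Itgb3 and Itga2. Neighbours in that order whose libraries overlapped were Itgb1 with Itga6 and Itgb5 with Itga3. In type II ECs, Itga6, Itga5, Itga1 and Itgb4 followed Itgb1 at 49.9, 39.9, 39.3 and 38.6 FPKM, and neighbours in this run overlapped, as did Itgav with Itga2 and Itga2 with Itgb3 at the low end. In type III ECs the order was Itgb1, Itgb4, Itga5, Itga6, Itga3, Itga1, Itgb5, Itga2, Itgav and Itgb3, where Itgb4, Itga5 and Itga6 did not differ beyond their spread, nor did Itga3 and Itga1, Itgb5 and Itga2, or Itga2 and Itgav. Itgb4 moved from place 5 to place 2 and Itga1 from place 3 to place 6.

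Replicate numbers went with some of the levels. As deposited, Itga1, Itga6, Itgb1 and Itgb5 were lower in replicate 2 than in replicate 1 in 3 of 3 subsets, and Itga5 and Itgb4 were higher in 3 of 3. The deposited values were not rescaled, and the median-ratio factor of the library was also lower in replicate 2 of each subset. For replicates 1 and 2 it was 1.17 and 0.836 in type I, 1.01 and 0.899 in type II, and 1.15 and 0.973 in type III. The summed leukocyte, epithelial, fibroblast and lymphatic markers were also lower in replicate 2 in 3 of 3 subsets. The part of such cells and of library scaling in the replicate pattern of the members was not tested.

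By distance over the 6 centred log2 profiles, the tested genes nearest to the called members were named as follows. For Itga2 they were Cyp27a1 at a distance of 0.173, Cenpt at 0.371 and Ccser1 at 0.392. For Itga3 they were Abca1, a cholesterol exporter, at 0.257, Steap3, an iron reductase, at 0.305 and the cadherin gene Cdh4 at 0.310. For Itgb4 they were the zinc finger genes Zfpm2 at 0.316 and Zfp423 at 0.375, with Xkr6 between them at 0.329. The nearest gene to Itga3, Abca1, was at 38.2 and 35.5 FPKM in type I ECs, 61.6 and 76.4 in type II ECs and 83.8 and 98.5 in type III ECs.

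Of the 17 other integrin subunits, 10 were tested and 0 passed in any of the 3 comparisons (limma, with 4 at an unadjusted p under 0.05 between type III and type I, 0 between type II and type I and 6 between type III and type II). Over all 11717 genes tested, the unadjusted counts were 1648, 877 and 1170 in the same order. The study's own Cuffdiff list for type III against type I ECs holds Itga7, Itga9 and Itgal of these subunits. Itga9, an alpha subunit known from lymphatic valves, was at 5.61 and 5.66 FPKM in type I ECs, 3.88 and 5.09 in type II ECs and 12.1 and 13.2 in type III ECs. Both type III libraries were above the 4 others, with a log2 difference of 1.04 from type I ECs (SE 0.29, limma adjusted p = 0.096, and 0.030 with the replicate block). From type II to type III ECs it was 1.32 (limma adjusted p = 0.13, and 0.037 with the block). The lymphatic regulator Prox1 was at 3.05 and 3.22 FPKM in type III ECs and between 0.324 and 1.09 in the 4 others, and the part of lymphatic cells was not tested. Prox1 differed by 1.54 on the log2 scale between the end subsets (limma adjusted p = 0.058, and 0.029 with the replicate block). Lyve1, another lymphatic marker, was at 12.4 and 1.07 FPKM in type III ECs, at 0 and 0.112 in type II ECs and listed at 0 in both type I libraries. The 4 lymphatic markers together summed to 30.1 and 13.3 FPKM in type III ECs, 12.4 and 9.85 in type II ECs and 23.9 and 18.7 in type I ECs. Flt4, at 20.0 and 16.7 FPKM in type I ECs and 9.45 and 7.15 in type III ECs, ran against Prox1 and Lyve1 in that sum. Between the end subsets Flt4 differed by -1.06 on the log2 scale (limma adjusted p = 0.080, and 0.019 with the replicate block). Itga7, a laminin receptor subunit of muscle, was at 12.7 and 6.48 FPKM in type I ECs, 10.3 and 8.16 in type II ECs and 2.33 and 4.06 in type III ECs. Its log2 difference between the first and the last of these was -1.30 (SE 0.38, limma adjusted p = 0.12). Of the 8 pericyte and smooth muscle markers given above, 5 were lower in both type III libraries than in both type I libraries. Another 2, the muscle markers Tagln and Acta2, were higher in both. The part of such cells in the Itga7 values was not tested.

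Itgb2, Itgal, Itgax, Itgad, Itgae, Itga4 and Itgb7, subunits of leukocyte integrins, all had their highest level in type III replicate 1, the library with the highest leukocyte marker sum. Itgb2 was at 21.8 FPKM there, at 7.29 in type III replicate 2 and at 11.6 in type I replicate 1. Itga8 was at 0.399 to 1.68 FPKM. Itga2b, Itga10, Itga11, Itgam and Itgb8 did not pass the filter, and Itgb2l and Itgb6 were listed at 0 in all 6 libraries.

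Of 30 matrix genes listed as ligands of these receptors, 24 were tested, and from type I to type III ECs 1 rose and 8 fell (limma). Of all genes 4.14% passed, 245 as higher and 240 as lower. The median log2 difference was -0.54 over the 24 and 0.08 over all genes. With the replicate block Col18a1 passed too, as lower (limma adjusted p = 0.031). The one that rose was Thbs1, thrombospondin 1, from 52.4 and 43.4 FPKM to 185 and 244, by 2.13 on the log2 scale (SE 0.27, limma adjusted p = 0.0025). Nid2, a nidogen that links laminin to collagen IV, fell by 2.22 on the log2 scale (SE 0.26, limma adjusted p = 0.0020). Lama3, a chain of a laminin bound by receptors with Itga3 or Itgb4, fell by 2.14 on the log2 scale (SE 0.34, limma adjusted p = 0.0080). The laminin chain Lamb1 fell by 1.51 (limma adjusted p = 0.013) and the collagen IV chain Col4a2, a ligand of Itga1 receptors, fell by 1.37 (limma adjusted p = 0.015). Vitronectin, Vtn, fell by 1.95 (limma adjusted p = 0.019). Col4a1, Fn1 and Lama4 made up the rest of the 8. Vtn was at 30.6 and 13.7 FPKM in type I ECs and at 4.34 and 4.86 in type III ECs, and it is also made by pericytes.

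Of 27 genes for integrin activation and linkage to actin, 25 were tested and 1 passed between type III and type I ECs, near the 4.14% of all genes, namely Lims2, an adaptor that binds integrin-linked kinase, which fell by 1.61 on the log2 scale (SE 0.24, limma adjusted p = 0.0068). Its level was 77.4 and 74.0 FPKM in type I ECs, 37.2 and 34.4 in type II ECs and 21.1 and 27.7 in type III ECs. Of 10 genes, Cd47 and tetraspanins, membrane proteins that associate with integrins, 1 passed, Cd82, which rose by 1.99 on the log2 scale (SE 0.27, limma adjusted p = 0.0043). Cd82 was at 33.4 and 22.4 FPKM in type I ECs, 38.5 and 36.1 in type II ECs and 127 and 97.2 in type III ECs. With the replicate block, which calls 8.29% of all genes, Cd9 and Cd63 also passed as higher (limma adjusted p = 0.012 and 0.0071) and Cd81 as lower (0.0079 in the same test), and of the linkage genes Tns1 passed as lower (limma adjusted p = 0.027). Cd81 was at 429 and 315 FPKM in type I ECs and at 187 and 175 in type III ECs. From type I to type II ECs Thbs1 of these 3 lists passed (limma adjusted p = 0.047), and from type II to type III ECs 0 passed (limma, with 9 of the matrix genes, 1 of the linkage genes and 4 of the tetraspanin list at an unadjusted p under 0.05). Over all 11717 genes tested, 1170 were under that unadjusted limma p from type II to type III ECs. With the replicate block Nid2 and Lims2 also passed from type I to type II ECs (limma adjusted p = 0.031 and 0.040), and Vtn and Cd82 passed from type II to type III ECs (limma adjusted p = 0.042 and 0.0098).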

How the data were processed

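RNA of sorted thymic ECs was sequenced in 6 libraries, 2 for each of 3 subsets. According to the methods and the submitters' processing notes, the authors mapped trimmed reads to mm9 with TopHat2 2.0.10 after CASAVA 1.8 and computed FPKM per library with Cufflinks 2.1.1, and the deposited FPKM values come with 95% intervals. The gene annotation is not given in the sources used here. The deposited values were not rescaled between libraries. From them, log2(FPKM + 1) was fitted with limma 3.58.1 in R 4.3.3 (a mean per subset over all 6 samples, eBayes with trend) for genes with at least 1 FPKM in at least 2 samples, with Benjamini-Hochberg adjustment over all 11717 and a threshold of 0.05. A fold change on this scale understates that of low genes. Cuffdiff, which the study used, needs reads. The scripts were tested on simulated data. The changes set there were larger than any member difference in the fit described, and same-numbered samples were not linked. How well changes of the members' size are recovered was not tested. Positions were read from the files, with gene overlaps from GENCODE M1, and 95 spike-in or reporter rows were left out.

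Same-numbered samples deviated together from their subset means (correlations of 0.20, 0.31 and 0.18 for the 3 pairs of subsets). The labels do not say what a number marks. The pairing therefore comes from the data, and blocked values are printed beside the members, other integrins and partner genes whose call they change. Among marker genes they are printed for Rgs5, Pdgfrb, Notch3, Prox1, Flt4, Krt5 and Cd3g. The block also changed calls of markers in the comparisons with type II ECs, and not all of these are printed. The alternatives were pseudocounts of 0.1 and 0.5, no filter or one of 5 FPKM, median-ratio scaling, quantile normalization, the replicate block, no trend, only the 4 samples compared and each library left out. The members and gene lists were chosen with earlier results of these data known. The text names all 10 members, all other integrin subunits, in each partner list the genes past the threshold (the 6 with the smallest adjusted p where there were more than 6) and the 3 nearest profiles of each called member. Marker genes, Col4a1, Fn1 and Lama4 were named after their values were seen. Figures were drawn with matplotlib 3.10.9.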

Additional observations from a re-analysis of the deposited data

How the results depend on the processing

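Of the 10 subunits, 3 passed between type III and type I ECs. The number was 0 with no filter on low values, 2 of 7 tested with the filter of 5 FPKM, 2 with only the 4 samples compared (limma adjusted p = 0.060 for Itga2), 1 without limma's trend, 5 with the replicate block and 5 with the block and median-ratio scaling, and it ranged from 0 to 2 when a library was left out. With no filter 16624 genes were tested in place of 11717. Pseudocounts of 0.1 and 0.5 left it at 3. Median-ratio scaling and quantile normalization also gave 3, but these were Itga1, Itga2 and Itga6. Between type II and type I ECs it was 0, but 1 with the replicate block and 2 with the block and scaling, and 0 to 0 with a library left out. Between type III and type II ECs it was 0, but 1 with the block and scaling, and 0 to 0 with a library left out. The signs of Itga1, Itga2, Itga3, Itga6 and Itgb4 between type III and type I ECs were the same in each alternative that tested them, and the filter of 5 FPKM did not test Itga2. The log2 difference of Itgav there turned from 0.07 to -0.0058 with median-ratio scaling, to -0.015 with quantile normalization and to -0.0058 with the block and scaling. With a library left out, it ranged from -0.16 to 0.29 for Itgav and from -0.12 to 0.42 for Itgb3. In the same way, the difference of type II from type I ECs ranged from -0.27 to 0.46 for Itgb1, from -0.58 to 0.0069 for Itga1 and from -0.066 to 0.21 for Itga5. That of type III from type II ECs ranged from -0.52 to 0.0026 for Itga6 and from -0.42 to 0.40 for Itgb5. The cause was not tested. Over all genes, the replicate block gave 971, 183 and 229 calls in the 3 comparisons in place of 485, 46 and 26. With no filter they were 317, 12 and 0, with median-ratio scaling 696, 95 and 84, with quantile normalization 694, 103 and 90, with the block and scaling 1188, 265 and 284, without the trend 410, 15 and 10, and with only the 4 samples compared 412, 37 and 40. With a library left out they ranged from 233 to 425, from 12 to 46 and from 5 to 47. With 2 libraries a subset, a lone library was assumed to vary like the others when its partner was left out. Below about 0.3 to 0.6 FPKM, differences were not detectable at this depth.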
